A study of Mus musculus with 20 samples.

Results

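Basement membranes are thin sheets of matrix that underlie epithelia, line most capillaries and surround smooth muscle, and 9 of the 32400 genes counted in these mouse livers encode core parts of them. They were taken by gene symbol from the deposited count table: the network-forming type IV collagen chains Col4a1 and Col4a2, the laminin chains Lamb1, Lamb2 and Lamc1, the linker nidogen 1 (Nid1), the heparan sulphate proteoglycan perlecan (Hspg2), and the multiplexin collagens Col15a1 and Col18a1. Bulk liver messenger RNA was sequenced from 20 libraries of the substrain C57BL/6NTac. A chow group (5 libraries) was on normal chow and was left untreated. The HFHF control group (7 libraries) received phosphate-buffered saline as vehicle and a diet high in fat and fructose (HFHF). The HFHF Flcn gRNA group (8 libraries) had the same diet and a guide RNA against Flcn carried by adeno-associated virus serotype 8. Because the chow animals had no vehicle injection, diet and vehicle cannot be told apart, and because the vehicle group had no virus, guide and virus cannot be told apart. The nuclease, the place of the guide in the gene, and the age and sex of the animals were not given in the sources used here. Nor was it stated whether each library is 1 animal, so p-values measure only the spread between these libraries.

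In a basement membrane, laminin trimers of 1 alpha, 1 beta and 1 gamma chain form a sheet on the cell surface, type IV collagen forms a second, crosslinked network, and nidogen and perlecan bridge the networks. The liver sinusoid is unusual in having little continuous basement membrane, and deposition of collagen IV and laminin along sinusoids by activated stellate cells and endothelium is a known part of liver fibrosis. Collagen XVIII, the source of the fragment endostatin, is known to be made by hepatocytes, while collagen XV lies mainly around vessels and in stroma. Flcn encodes folliculin, a regulator of Rag GTPases at the lysosome that keeps the transcription factors TFEB and TFE3 out of the nucleus.

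Col4a1 and Col4a2 are a head-to-head gene pair, and the place where they meet is shown because both genes are read from it in opposite directions. In GRCm38.p6 the RefSeq starts of the pair, at base 11312826 of chromosome 8 on the minus strand for Col4a1 and at base 11312805 on the plus strand for Col4a2, leave 22 bases that belong to both first exons. For Col18a1 the more upstream of its annotated starts was taken. The sequences upstream of it and of Nid1 are shown as well, since these genes moved furthest apart in the counts. All are from RefSeq windows of 300 bases (250 before and 50 after the start), cut to end before the first annotated exon for Nid1 and Col18a1, and are written 5′ to 3′ with capitals marking GGGCGG (the GC box) or CCAAT on either strand.
Shared start of Col4a1 and Col4a2, plus strand, chr8:11312805-11312826: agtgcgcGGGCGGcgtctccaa
Nid1 upstream, plus strand, chr13:13437352-13437550: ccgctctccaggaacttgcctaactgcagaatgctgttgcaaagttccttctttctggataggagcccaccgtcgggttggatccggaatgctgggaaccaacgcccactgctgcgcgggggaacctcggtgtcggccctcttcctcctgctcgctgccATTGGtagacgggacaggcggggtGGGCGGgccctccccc
Col18a1 upstream, minus strand, chr10:77166549-77166780: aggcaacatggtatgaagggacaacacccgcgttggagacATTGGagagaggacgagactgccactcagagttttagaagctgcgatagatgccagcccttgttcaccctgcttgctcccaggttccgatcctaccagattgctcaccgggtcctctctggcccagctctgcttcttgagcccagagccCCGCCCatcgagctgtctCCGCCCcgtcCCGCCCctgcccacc

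The windows of Col4a1 and Col4a2 share 78 bases and hold 74% and 73.7% G or C, against a median of 52.7% over all 32851 promoter windows. RefSeq windows were found for 8 of the 9 genes, with a pair of starts for Col18a1, so there were 9 windows in all. GGGCGG was in 6 of these 9 windows (Col4a1, Col4a2, Lamb1, Nid1, Hspg2 and the upstream start of Col18a1) and in 35.7% of all windows. CCAAT was in 5 of the 9 and in 37.4% of all windows. CACGTG, the core of the CLEAR element bound by TFEB and TFE3, was in 0 of the 9 windows and in 7.15% of all windows. The long CLEAR palindrome, which contains that core, was likewise in 0 of 9 and in 0.326% of all. TGANTCA, the AP-1 site, was also in 0 of 9 against 7.81%. A missing match says only that these letters do not occur in these windows.

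Library totals were 14131976 to 16285324 counts in the chow group, 15244760 to 18194089 in the HFHF control group and 13974379 to 19586576 in the Flcn gRNA group. Counts of the 9 genes ran from 24 for Lamb2 to 12419 for Col18a1 in a library, no count of theirs was fractional, and all 9 passed the filter on low counts. Levels are CPM, counts scaled to a common library size with TMM factors, and, where genes are compared, CPM per kilobase of exon. Hepatocyte markers such as Alb were abundant in every library, as the tissue label says. Flcn averaged 22.2 ± 6.03 CPM (SD, n = 5) in chow livers, 20.7 ± 2.98 CPM (n = 7) in the HFHF controls and 17.8 ± 2.40 CPM (n = 8) in the Flcn gRNA group, with a log2 fold change of -0.22 between the last pair of groups (SE 0.12, edgeR adjusted p = 0.140), and the ranges overlapped. Whole-gene counts need not fall where a guide cuts, so they do not check the edit. Differences in bulk tissue cannot tell fewer cells of a type from less RNA per cell.

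Among the 9 genes, Col18a1 had by far the highest level per length in every group, at 99.4 CPM per kilobase in chow, 62.7 in HFHF control and 82.5 in Flcn gRNA livers. Second in the chow group came Col4a1 at 3.40 CPM per kilobase, followed by Col4a2 at 2.63, Lamc1 at 1.85 and Nid1 at 1.68. In the HFHF controls Nid1 (10.4 ± 1.97 CPM per kilobase) and Col4a1 (9.04 ± 0.952) stood next to each other in that order, closer than their spread. Lamb2, the beta chain of vascular and synaptic laminins, was lowest per length in all 3 groups, at 0.514, 0.728 and 0.443 CPM per kilobase.

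Transcripts of most of the basement membrane genes were more abundant in HFHF control than in chow livers. Of the 9 genes, 7 rose (Col4a1, Col4a2, Col15a1, Lamb1, Lamb2, Lamc1 and Nid1), 1 fell (Col18a1), and Hspg2 did not pass the test at an adjusted p of 0.05. In this contrast 57.0% of all 13667 genes tested passed, 28.1% higher and 28.9% lower. Of those calls 49.4% were higher, or 60.7% with upper-quartile scaling. The median log2 fold change of the 9 was 0.92, beside -0.01 over all genes tested. In 5 genes (Col4a1, Col4a2, Lamb1, Lamc1 and Nid1) all HFHF control libraries lay above all chow libraries, a pattern that 18.8% of all genes showed. In Col18a1 they all lay below, as in 18.1% of all genes.

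Against this, livers given the Flcn guide carried less of the same transcripts than HFHF controls. Here 8 genes fell, and 1, Col18a1, rose. Over all genes tested 38.6% passed in this contrast, 19.6% higher and 19.0% lower, so 50.7% of calls were higher, or 37.8% with upper-quartile scaling. The median over the 9 was -0.74, beside 0.01 over all genes. In 6 genes (Col4a1, Col4a2, Col15a1, Lamb1, Lamc1 and Nid1) the whole Flcn gRNA group lay below the whole HFHF control group, as in 6.01% of all genes. The reverse, the whole guide group above, held for 0 of the 9 and for 5.04% of all genes. The diet and guide contrasts share the HFHF control libraries, so a chance high or low level there would move both in opposite directions, and their values are given only side by side.

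**Figure D1:**
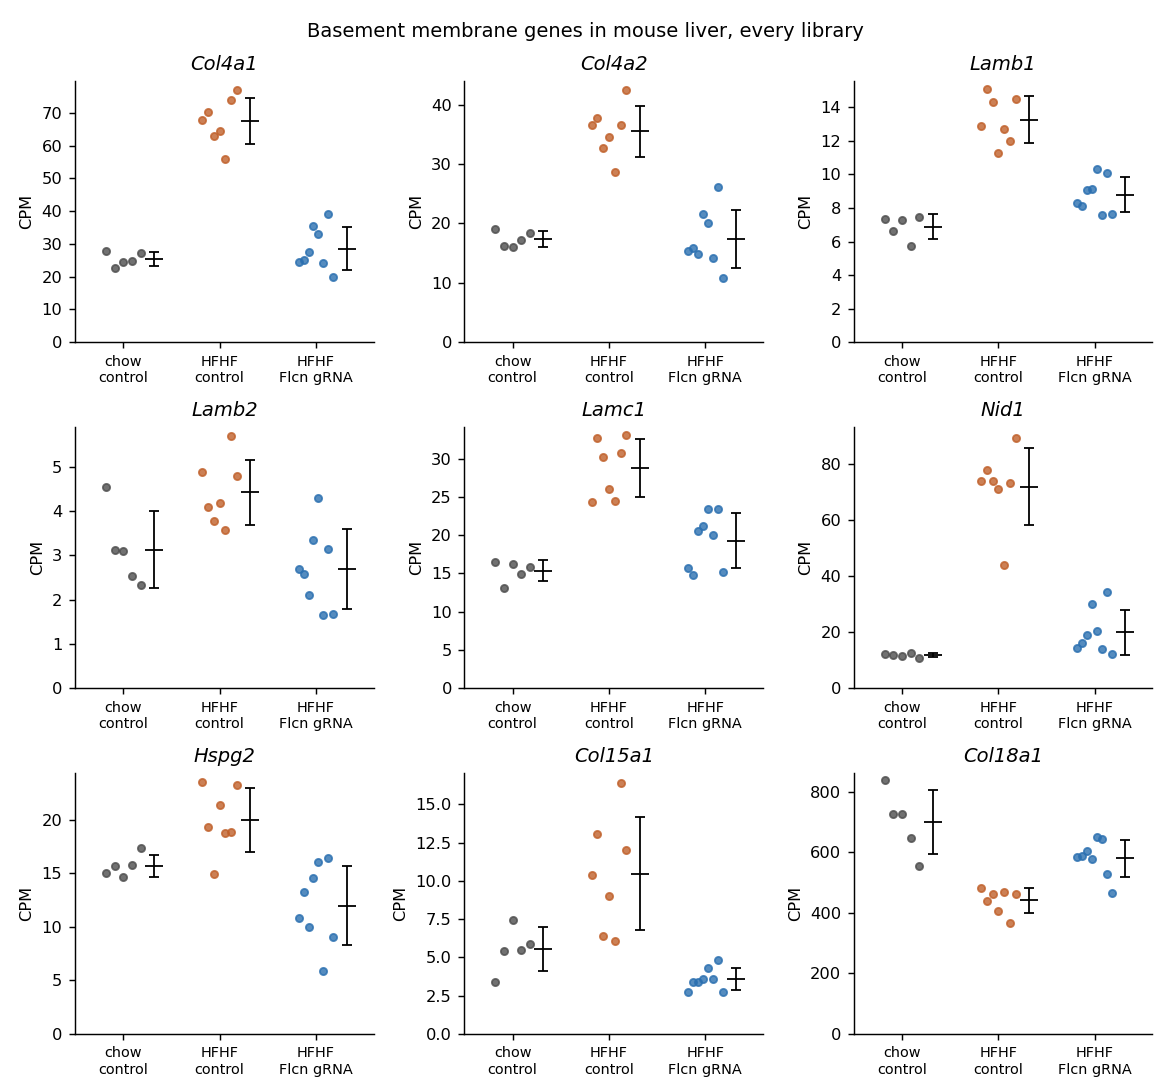
CPM of the 9 basement membrane genes in each library (points) of the chow control (n = 5), HFHF control (n = 7) and HFHF Flcn gRNA (n = 8) groups, with bars for mean and SD, on linear axes that start at 0. The HFHF control points sit above both other groups in Col4a1, Col4a2, Lamb1, Lamc1 and Nid1, and below chow in Col18a1.

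Type IV collagen gave the plainest separation among the network-forming chains. Col4a1 (ENSMUSG00000031502, chromosome 8, 11198423 to 11312826, minus strand) encodes the alpha 1 chain, of which the common trimer holds a pair. Its level in the chow libraries was 27.7, 22.7, 24.6, 24.9 and 27.2 CPM. Across HFHF controls it ran from 56.0 through a median of 67.8 to 76.9 CPM, and across Flcn gRNA livers from 19.9 through 26.4 to 39.1 CPM. The HFHF controls overlapped with neither other group, while the Flcn gRNA libraries spread to both sides of the chow range. In edgeR's quasi-likelihood test the log2 fold change was 1.41 (SE 0.13, adjusted p = 1.91e-08) for HFHF control against chow and -1.24 (SE 0.11, adjusted p = 5.75e-08) for Flcn gRNA against HFHF control. As linear folds these are 2.66 times higher and 2.36 times lower.

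Col4a2 (ENSMUSG00000031503, chromosome 8, 11312805 to 11449287, plus strand) encodes the alpha 2 partner chain. Chow libraries held 19.0, 16.2, 16.0, 17.2 and 18.4 CPM, HFHF controls 28.6 to 42.4 with a median of 36.5, and Flcn gRNA livers 10.8 to 26.2 with a median of 15.6. The highest Flcn gRNA library stayed just under the lowest HFHF control. Its log2 fold change was 1.03 (SE 0.16, adjusted p = 1.03e-05) for diet with vehicle and -1.03 (SE 0.13, adjusted p = 4.4e-06) for the guide, by edgeR. The genes share 22 exon bases, 0.295% of the exon length of Col4a1 and 0.332% of that of Col4a2, and since the use of strand was not given, reads in them cannot be assigned.

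The paired chains did not change by the same amount. The ratio of Col4a1 to Col4a2 counts, which needs no library scaling, was 1.40 to 1.53 in chow livers, 1.82 to 2.03 in HFHF controls and 1.49 to 1.86 in Flcn gRNA livers. Such a ratio is not corrected for length, so only its change between groups can be read. The log2 ratio was 0.38 higher in HFHF controls than in chow livers, without overlap (exact two-sided permutation test over 792 regroupings, p = 0.00126, the smallest it can give, adjusted p = 0.00278 over 33 ratio tests). It was 0.19 lower with the guide than in HFHF controls (exact permutation p = 0.00218, adjusted 0.00449) and still 0.19 above chow (exact permutation p = 0.00544, adjusted 0.00945). So Col4a1 moved more than Col4a2 in both contrasts, and the Flcn gRNA group kept a ratio between those of the other groups.

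The other chains of the family add a member that moved and several near the limit of detection. Col4a5, an X-linked chain best known from Alport syndrome, averaged 0.914 CPM in chow, 3.18 in HFHF control and 1.03 in Flcn gRNA livers. It rose by 1.78 with diet (edgeR adjusted p = 2.37e-05) and fell by 1.61 with the guide (edgeR adjusted p = 1.84e-05). Col4a4 passed neither test, and Col4a3 and Col4a6 were too low to be tested.

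Laminin beta 1 and gamma 1, the chains shared by most laminins outside specialised sites, moved together. Lamb1 was at 7.35, 6.64, 7.26, 5.72 and 7.47 CPM in chow libraries, 11.3 to 15.1 (median 12.9) in HFHF controls and 7.60 to 10.3 (median 8.71) in Flcn gRNA livers. These 3 ranges did not touch, with the guide group between the others. By edgeR Lamb1 rose by 0.94 with diet (SE 0.10, adjusted p = 8.43e-08) and fell by 0.59 with the guide (SE 0.09, adjusted p = 1.15e-05), on the log2 scale. Against chow the Flcn gRNA group was higher by 0.35 (SE 0.10, edgeR adjusted p = 0.00695).

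Lamc1, the gamma chain, was at 16.5, 13.1, 16.3, 14.9 and 15.9 CPM in chow libraries. It ran from 24.3 through 30.3 to 33.2 CPM in HFHF controls and from 14.8 through 20.3 to 23.5 CPM in Flcn gRNA livers. HFHF controls again stood above both other groups, narrowly over the highest guide library. Its edgeR log2 fold changes were 0.91 (SE 0.12, adjusted p = 1.66e-06) for diet and -0.58 (SE 0.10, adjusted p = 0.00013) for the guide, close to those of Lamb1. The count ratio of Lamb1 to Lamc1 had group means of 0.450, 0.461 and 0.462 in chow, HFHF control and Flcn gRNA livers. Its log2 differences were 0.04 for diet, 0.00 for the guide and 0.04 against chow, with exact permutation adjusted p of 0.741, 0.996 and 0.744. Of all 36 pairs among the 9 genes, Lamb1 and Lamc1 had the most similar profile over the 20 libraries (root mean square difference of centred log2 CPM 0.151), followed by Col4a1 and Col4a2 (0.164).

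Lamb2 was low and noisier. Its chow libraries held 4.56, 3.12, 3.10, 2.53 and 2.33 CPM, HFHF controls 3.57 to 5.71 with a median of 4.19, and Flcn gRNA livers 1.65 to 4.31 with a median of 2.64. All 3 groups overlapped. Lamb2 fell with the guide by 0.72 (SE 0.18, edgeR adjusted p = 0.00338). Its rise with diet, 0.50 (SE 0.21, edgeR adjusted p = 0.0475), was lost in 10 of 20 fits that each left out 1 library. These were the fits without chow replicate 2, 3, 4 or 5 (adjusted p = 0.0626, 0.0628, 0.0939 and 0.101 by edgeR), without HFHF control replicate 1, 2, 4, 6 or 7 (0.0734, 0.0515, 0.0539, 0.0959 and 0.0725), and without Flcn gRNA replicate 7 (0.0503).

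A laminin also needs an alpha chain, which decides the receptors it binds. Among 8 other laminin chains, 4 rose and 1 fell with diet, while 1 rose and 3 fell with the guide. Taken in either direction, these counts are near the background of 57.0% of all genes called with diet and 38.6% with the guide. By direction, 28.1% of all genes rose and 28.9% fell with diet, and 19.6% rose and 19.0% fell with the guide. Lama2, the alpha chain of muscle and stromal laminins, averaged 1.84 CPM in chow, 4.90 in HFHF control and 1.87 in Flcn gRNA livers, a rise of 1.41 and a fall of 1.39 on the log2 scale (edgeR adjusted p = 1.55e-05 and 6.09e-06). Lama5, common in adult epithelial and vascular basement membranes, went from 1.99 to 5.34 to 1.86 CPM, a rise of 1.42 and a fall of 1.52 (edgeR adjusted p = 7.13e-05 and 1.14e-05). For Lama2 all HFHF control libraries were above all libraries of the other groups, while for Lama5 the lowest HFHF control, replicate 5 at 2.46 CPM, was just under the highest Flcn gRNA library at 2.53.

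Lama3, the alpha chain of an epithelial laminin, went the other way. It was at 7.57, 5.18, 8.78, 8.02 and 10.8 CPM in chow libraries, 0.617 to 1.73 in HFHF controls and 1.16 to 6.08 in Flcn gRNA livers. Chow and HFHF control livers were far apart, and the guide group overlapped both. Its replicate 4 (1.16 CPM) was in the HFHF control range, and replicates 1 (5.25) and 5 (6.08) were in the chow range. It fell by 2.90 with diet (SE 0.32, edgeR adjusted p = 1.74e-07), rose by 1.58 with the guide (SE 0.30, adjusted p = 0.000319) and was still 1.32 lower than in chow (log2 fold change -1.32, edgeR adjusted p = 0.000787). Lama4, an endothelial alpha chain picked out after its values were seen, averaged 4.88, 4.73 and 4.79 CPM in the same order, with log2 fold changes of -0.04 and 0.02 (edgeR adjusted p = 0.883 and 0.935). The remaining alpha chain, Lama1, averaged 4.14, 5.99 and 5.66 CPM. It rose by 0.53 with diet (edgeR adjusted p = 0.00619) but changed by only -0.08 with the guide (edgeR adjusted p = 0.659). Against chow the Flcn gRNA group stayed higher in Lama1 by 0.45 (edgeR adjusted p = 0.0229).

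**Figure D2:**
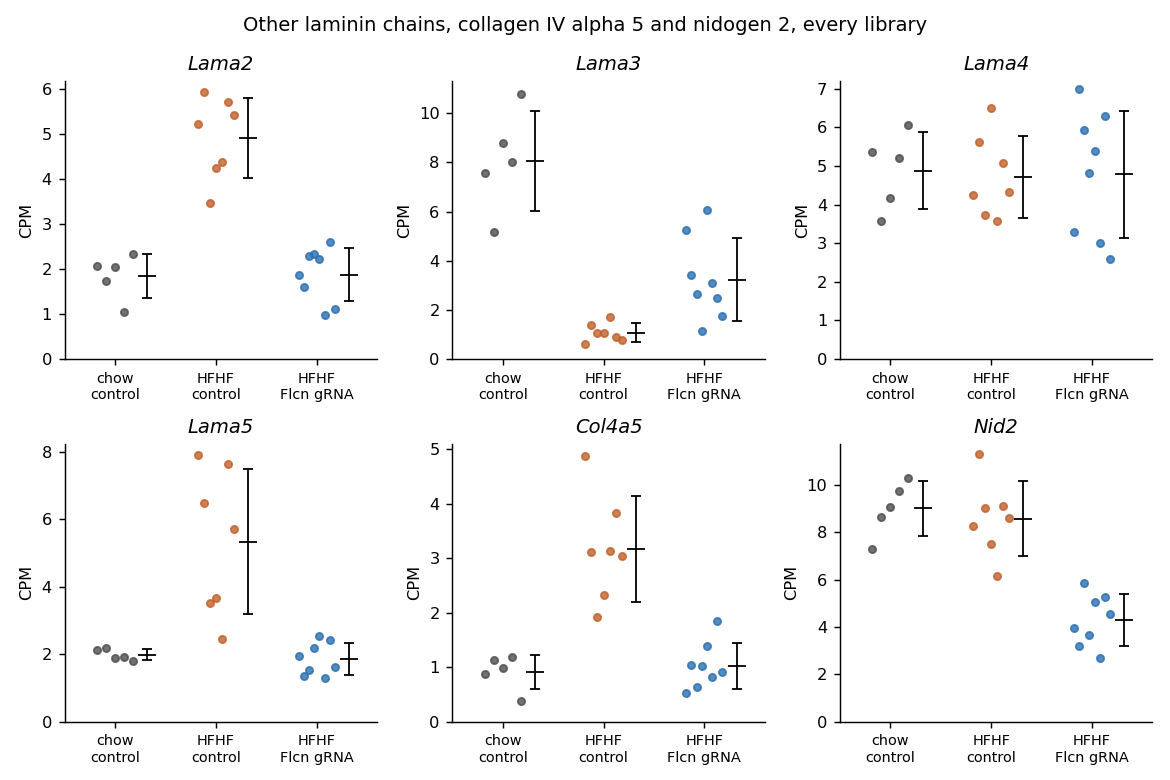
CPM of 4 laminin alpha chains, collagen IV alpha 5 and nidogen 2 in each library (points) of the 3 groups, with bars for mean and SD, on linear axes that start at 0. Lama2, Lama5 and Col4a5 are highest on average in HFHF controls, Lama3 is lowest there, Lama4 overlaps throughout, and Nid2 is lower in every Flcn gRNA library than in any other.

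Nid1 changed most. The gene (ENSMUSG00000005397, chromosome 13, 13437551 to 13512269, plus strand) encodes the protein that clips laminin gamma 1 to type IV collagen. Chow libraries held 12.1, 11.7, 11.3, 12.6 and 10.6 CPM, within a coefficient of variation of 6.56%. HFHF controls ran from 44.0 (replicate 5, with the next at 70.9) through a median of 73.9 to 89.3 CPM. Flcn gRNA livers ran from 12.1 through 17.4 to 34.1 CPM. All HFHF controls were well above all others, and the Flcn gRNA group reached down into the chow range, with replicates 4 (30.0 CPM) and 7 (34.1 CPM) apart from the rest.

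Nid1 rose with diet by 2.62 (SE 0.24, edgeR adjusted p = 5.25e-08), a 6.17-fold difference, and fell with the guide by 1.85 (SE 0.20, edgeR adjusted p = 8.41e-07), 3.61-fold lower. It remained above chow by 0.77 (SE 0.23, edgeR adjusted p = 0.0115). Relative to its laminin partner, the count ratio of Nid1 to Lamc1 averaged 0.762 in chow, 2.46 in HFHF control and 0.985 in Flcn gRNA livers. In log2 terms it was 1.69 higher with diet (exact permutation adjusted p = 0.00278) and changed by -1.32 with the guide (exact permutation adjusted p = 0.000855), with no overlap in either. Nid1 therefore moved by more than Lamc1 in both contrasts. An antisense gene, Gm48682, covers 143 exon bases of Nid1, 2.06% of its exon length, and averaged 0.11 CPM.

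Its paralog Nid2 had another pattern. Nid2 was at 7.28, 8.63, 9.08, 9.73 and 10.3 CPM in chow libraries, 6.14 to 11.3 in HFHF controls and 2.69 to 5.87 in Flcn gRNA livers. Every guide library was below every library of the other groups, which overlapped each other. By edgeR Nid2 changed by -0.07 with diet (SE 0.16, adjusted p = 0.727), by -1.0 with the guide (SE 0.15, adjusted p = 1.37e-05) and by -1.07 against chow (SE 0.16, adjusted p = 1.62e-05).

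Perlecan, the bridging proteoglycan, changed by less than Col4a1 with diet and with the guide. Hspg2 was at 15.0, 15.7, 14.6, 15.8 and 17.3 CPM in chow libraries, 14.9 to 23.5 (median 19.3) in HFHF controls and 5.84 to 16.4 (median 12.0) in Flcn gRNA livers. All groups overlapped. It fell with the guide by 0.74 (SE 0.16, edgeR adjusted p = 0.00104). For diet its log2 fold change was 0.35 with a 95% interval from -0.03 to 0.73 (edgeR adjusted p = 0.108), so a rise of up to 0.73 is within the interval. That test passed with upper-quartile scaling (0.44, edgeR adjusted p = 0.0475), with only these groups in the fit (0.36, edgeR adjusted p = 0.00617) and without Flcn gRNA replicate 6 (0.35, edgeR adjusted p = 0.0322). Measured against Col4a1 in the same library, Hspg2 counts averaged a ratio of 0.618 in chow, 0.295 in HFHF control and 0.409 in Flcn gRNA livers. The log2 ratio changed by -1.07 with diet and by 0.47 with the guide (exact permutation adjusted p = 0.00278 and 0.0174), so Hspg2 moved by less than Col4a1 each time. Against chow that log2 ratio was -0.60 in Flcn gRNA livers (exact permutation adjusted p = 0.00452), so the share of Hspg2 relative to Col4a1 stayed lower than in chow.

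The multiplexins, which sit on the stromal face of basement membranes and release antiangiogenic fragments, went in opposite directions. Col15a1 held 3.38, 5.44, 7.42, 5.50 and 5.84 CPM in chow libraries, 6.09 to 16.4 (median 10.4) in HFHF controls and 2.70 to 4.81 (median 3.49) in Flcn gRNA livers. Of the 9 genes HFHF controls varied most here, with a coefficient of variation of 35.3%, yet all lay above all Flcn gRNA libraries. Col15a1 rose with diet by 0.92 (SE 0.22, edgeR adjusted p = 0.00135) and fell with the guide by 1.55 (SE 0.20, edgeR adjusted p = 3.6e-06).

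Col18a1 (ENSMUSG00000001435, chromosome 10, 77052178 to 77166548, minus strand) was at 839, 725, 725, 648 and 554 CPM in chow libraries. It ran from 367 through a median of 462 to 483 CPM in HFHF controls and from 465 through 586 to 650 CPM in Flcn gRNA livers. All chow libraries lay above all HFHF controls, while only the lowest guide library fell within the HFHF control range. Col18a1 fell with diet by 0.66 (SE 0.10, edgeR adjusted p = 4.89e-06), 1.58-fold lower, and rose with the guide by 0.40 (SE 0.09, edgeR adjusted p = 0.000965), 1.32-fold higher. The count ratio of Col18a1 to Col4a1 averaged 27.2 in chow, 6.53 in HFHF control and 20.6 in Flcn gRNA livers, and its log2 value changed by -2.06 and 1.66 (exact permutation adjusted p = 0.00278 and 0.000855). Counts per gene cannot say which of the annotated starts of Col18a1 was used.

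**Figure D3:**
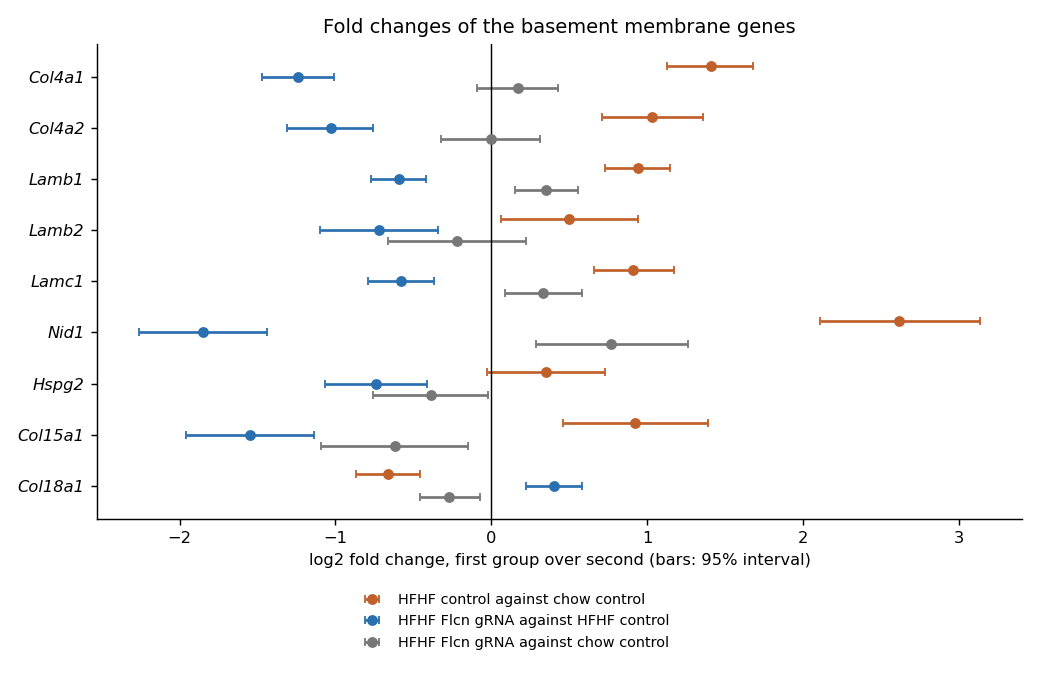
Log2 fold change from edgeR's quasi-likelihood fit (points) with 95% intervals (bars) for each of the 9 genes in the 3 contrasts. Points for diet with vehicle lie to the right of 0 and points for the guide to the left. In Col18a1 alone they change sides. Points against chow run from -0.62 (Col15a1) to 0.77 (Nid1), and their intervals include 0 only for Col4a1, Col4a2 and Lamb2.

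Set directly against untreated chow, the Flcn gRNA group differed in fewer of these genes. Lamb1, Lamc1 and Nid1 were higher, Col15a1 and Col18a1 were lower, and Col4a1, Col4a2, Lamb2 and Hspg2 did not pass. Over all genes 42.6% passed in this contrast, 20.9% higher and 21.7% lower. The median of the 9 was -0.00, as was that of all genes at 0.00. In 1 gene, Lamb1, every guide library lay above every chow library, a pattern of 9.01% of all genes, and 0 of the 9 lay wholly below, against 8.98% of all genes. Failing the test does not show equality: the 95% interval of the log2 fold change was -0.09 to 0.43 for Col4a1, -0.32 to 0.31 for Col4a2, -0.66 to 0.22 for Lamb2 and -0.76 to -0.02 for Hspg2.

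Several of these calls turned on 1 library. Lamc1 (0.33, SE 0.12, edgeR adjusted p = 0.0286) was lost without chow replicate 2 (edgeR adjusted p = 0.0657) or Flcn gRNA replicate 7 (0.0569). Col15a1 (-0.62, SE 0.23, edgeR adjusted p = 0.0316) was lost without chow replicate 2, 3, 4 or 5 (edgeR adjusted p = 0.0641, 0.131, 0.0619 and 0.0731) or Flcn gRNA replicate 1, 2, 3 or 8 (0.0637, 0.0578, 0.0560 and 0.0678). Col18a1 (-0.27, SE 0.09, edgeR adjusted p = 0.0259) was lost without chow replicate 1, 2 or 3 (edgeR adjusted p = 0.177, 0.0876 and 0.0878) or Flcn gRNA replicate 1, 2 or 8 (0.0532, 0.0538 and 0.0736). Hspg2 (-0.39, SE 0.18, edgeR adjusted p = 0.0859) passed without Flcn gRNA replicate 7 (edgeR adjusted p = 0.0388). Lamb1 and Nid1 kept their calls in each of the 20 fits that left out 1 library.

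Within each HFHF group several genes shared their extreme libraries. Leaving Col18a1 aside, HFHF control replicate 5 was the lowest of its group in 5 of 8 genes and replicate 7 the highest in 4. In the chow group replicate 1 was the highest in 4 of 8, but no replicate was the lowest in more than 2. Among the Flcn gRNA livers replicate 7 was the highest in 5 of 8 and replicate 5 in the other 3, while replicates 6 and 8 were each the lowest in 3. Without HFHF control replicate 5 the counts of genes passing stayed at 7 higher and 1 lower for diet and 1 higher and 8 lower for the guide. Those for the guide were also the same without Flcn gRNA replicate 8, whose title carries another middle number than the rest.

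**Figure D4:**
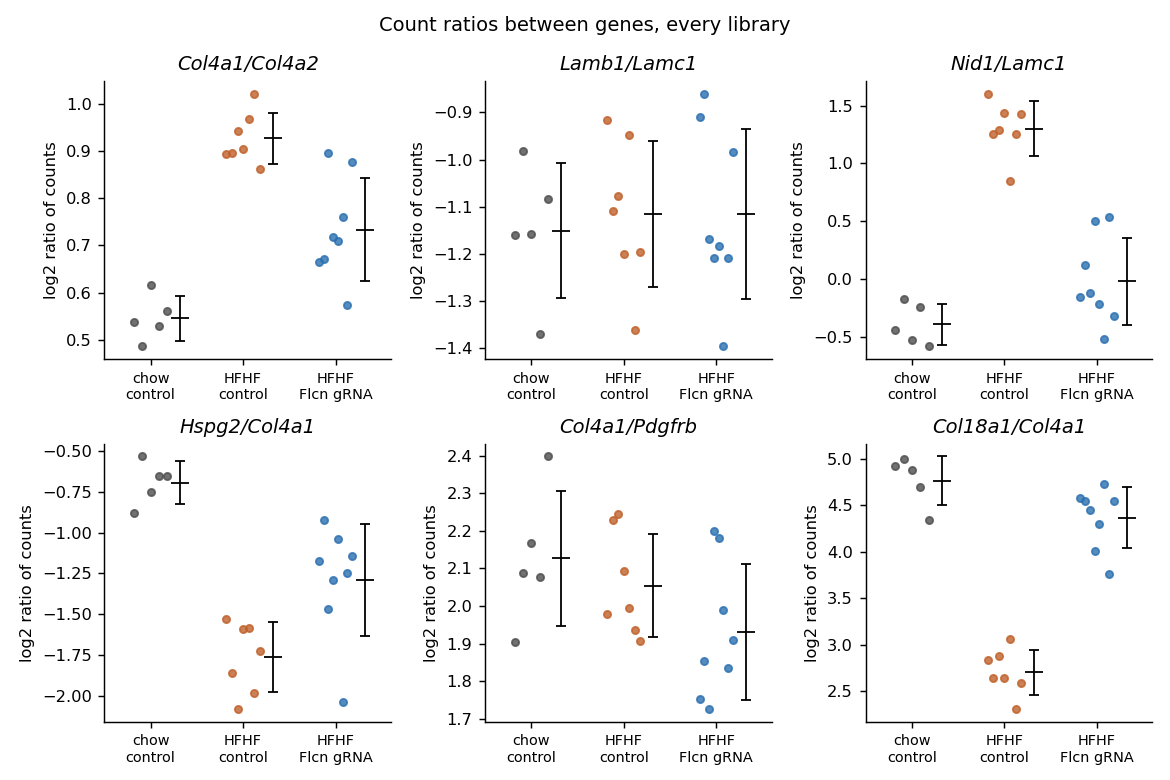
Log2 ratio of the counts of 2 genes in each library (points) of the 3 groups, with bars for mean and SD, for 6 of the 11 pairs tested. The ratio of Lamb1 to Lamc1 and that of Col4a1 to Pdgfrb overlap in all groups. Those of Col4a1 to Col4a2, Nid1 to Lamc1, Hspg2 to Col4a1 and Col18a1 to Col4a1 separate chow from HFHF control livers.

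Genes of proteins that bind or organise basement membranes were counted from lists chosen with earlier results of these data known. Of 22 other linkers and associated proteins 20 were tested: 10 rose and 2 fell with diet, and 1 rose and 10 fell with the guide, with medians of 0.64 and -0.45. Over all genes tested the shares were 28.1% higher and 28.9% lower with diet, and 19.6% higher and 19.0% lower with the guide, the background for this and the other lists. Sparc, a collagen-binding matricellular protein, averaged 32.2 CPM in chow, 121 in HFHF control and 47.7 in Flcn gRNA livers (edgeR log2 fold changes 1.91 and -1.35, adjusted p = 1.16e-09 and 4.37e-08). Efemp1, fibulin 3, rose by 1.16 with diet and fell by 0.60 with the guide (edgeR adjusted p = 4.47e-08 and 5.36e-05), and Fbln2 rose by 2.19 and fell by 1.07 (edgeR adjusted p = 1.81e-07 and 0.000108). Fras1, a protein of epithelial basement membranes, went the other way with diet: it averaged 3.61 CPM in chow, 0.743 in HFHF control and 1.07 in Flcn gRNA livers. Its log2 fold change was -2.28 for diet (edgeR adjusted p = 5.25e-08), 0.53 for the guide (edgeR adjusted p = 0.0742) and -1.75 against chow (edgeR adjusted p = 2.27e-06). Smoc1, a Sparc relative, was the single gene of this list that rose with the guide (0.66, edgeR adjusted p = 2.09e-07). Its diet value was -0.09 (edgeR adjusted p = 0.331).

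Among receptors for collagen and laminin the outcome was mixed. Of 15, 14 were tested, and 6 rose and 4 fell with diet, while 1 rose and 6 fell with the guide. Over all genes 28.1% rose and 28.9% fell with diet, and 19.6% rose and 19.0% fell with the guide, so the 4 that fell with diet were near the background share. Ddr1, a receptor kinase activated by collagen, averaged 0.628, 3.14 and 0.852 CPM in chow, HFHF control and Flcn gRNA livers, with edgeR log2 fold changes of 2.30 (adjusted p = 9.33e-07) and -1.87 (adjusted p = 2.06e-06). Ddr2 rose by 0.96 and fell by 0.80 (edgeR adjusted p = 5.21e-07 and 2.27e-06), and Itga2, a collagen-binding integrin subunit, rose by 2.34 and fell by 1.91 (edgeR adjusted p = 2.86e-05 and 3.51e-05). Bcam, a laminin receptor, rose by 0.99 and fell by 0.99 (edgeR adjusted p = 0.000518 and 0.000201). The syndecan Sdc2 fell by 1.05 with diet and rose by 0.38 with the guide (edgeR adjusted p = 1.44e-08 and 0.00162). Itgb1, the common beta subunit of the collagen and laminin integrins, was named after its values were seen and averaged 180, 189 and 182 CPM (edgeR adjusted p = 0.337 and 0.460).

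The machinery that folds, modifies and crosslinks collagen was tested in 21 of 22 genes. With diet 11 rose and 5 fell, and with the guide 4 rose and 12 fell, beside 57.0% of all genes called with diet and 38.6% with the guide. The 4 that rose with the guide were near the background share of 19.6%. Serpinh1, the collagen chaperone HSP47, averaged 6.37, 25.4 and 9.48 CPM in chow, HFHF control and Flcn gRNA livers (edgeR log2 fold changes 2.0 and -1.42, adjusted p = 1.55e-08 and 2.95e-07). Loxl2, a lysyl oxidase known to crosslink collagen IV, averaged 3.16, 13.9 and 4.76 CPM (edgeR log2 fold changes 2.13 and -1.54, adjusted p = 2.2e-09 and 3.71e-08). Crtap, a subunit of the prolyl 3-hydroxylation complex, rose by 1.52 and fell by 1.01 (edgeR adjusted p = 3.25e-08 and 1.63e-06). The collagen galactosyltransferases differed in direction: Colgalt1 rose by 0.49 and fell by 0.44 (edgeR adjusted p = 1e-05 and 1.65e-05), while Colgalt2 fell by 3.78 and rose by 2.11 (edgeR adjusted p = 6.64e-08 and 0.000375), from 1.48 CPM in chow to 0.10 in HFHF control and 0.453 in Flcn gRNA livers. Peroxidasin (Pxdn), which forms the sulfilimine bond of collagen IV and was named after its values were seen, differed less, with 0.30 for diet (edgeR adjusted p = 0.0339) and -0.24 for the guide (edgeR adjusted p = 0.0654).

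Markers of cell types that make basement membrane moved as well. Of 14 stellate cell markers 12 rose and 0 fell with diet, and 10 fell and 0 rose with the guide, beside 28.1% of all genes higher with diet and 19.0% lower with the guide. Their summed level was 277 to 360 CPM in chow, 557 to 685 in HFHF control and 358 to 479 in Flcn gRNA livers, and none of them was at 0 in any library (Ecm1 is also in the list of associated proteins). The count ratio of Col4a1 to Pdgfrb, a receptor of stellate cells and pericytes, averaged 4.37, 4.15 and 3.81 in the 3 groups. It differed by -0.07 with diet and -0.12 with the guide in log2 (exact permutation adjusted p = 0.471 and 0.198), so no unequal change of this pair was detected. The part of stellate cell number in the collagen IV values was not tested.

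Against Col1a1, Stab2 and Pecam1, Col4a1 moved unequally with diet and with the guide. Its count ratio to Col1a1, the main fibrillar collagen, averaged 9.02 in chow, 0.856 in HFHF control and 3.37 in Flcn gRNA livers, without overlap between any of the groups (log2 differences -3.40, 1.98 and -1.42, the last against chow, exact permutation adjusted p = 0.00278, 0.000855 and 0.00278). Col4a1 thus rose and fell by less than Col1a1, which is in none of the cell type marker lists used here. The ratio of Col4a1 to Stab2, a scavenger receptor of sinusoidal endothelium, averaged 0.608, 1.70 and 0.403 (log2 differences 1.48 and -2.08, exact permutation adjusted p = 0.00278 and 0.000855). Stab2 itself changed by -0.06 with diet and rose by 0.80 with the guide (edgeR adjusted p = 0.659 and 2.64e-06). Its rise is therefore part of the guide difference. Of 12 sinusoidal markers, 2 rose with diet (Clec1b by 1.28 and Lyve1 by 1.32) and 6 fell, so such a ratio depends on the marker taken. The ratio of Col4a1 to the pan-endothelial Pecam1 averaged 1.70, 3.66 and 1.91 (log2 differences 1.11 and -0.94, exact permutation adjusted p = 0.00278 and 0.000855).

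Sinusoidal endothelial markers went 2 up and 6 down of 12 with diet and 3 up and 0 down with the guide, with summed levels of 292 to 340, 224 to 348 and 230 to 418 CPM in chow, HFHF control and Flcn gRNA livers. Of 10 other endothelial markers tested, 3 rose with diet and 3 fell with the guide, and the 11 listed summed to 95.5 to 108, 121 to 146 and 71.5 to 141 CPM. Portal fibroblast and smooth muscle markers rose in 6 of 7 tested and fell in 5 of 7, with sums over 11 genes of 13.3 to 16.5, 27.7 to 41.1 and 15.5 to 27.6 CPM. In that list Gli1 was at 0 in 10 libraries and Clec3b in 11. Bile duct markers rose in 3 of 4 tested with diet and fell in 4 of 4 with the guide, and 8 genes summed to 24.8 to 35.7, 93.4 to 228 and 30.7 to 80.9 CPM. Of these, Cldn4 was at 0 in 8 libraries. Macrophage markers rose in 8 and fell in 2 of 12 with diet and rose in 3 and fell in 6 with the guide, summing to 77.6 to 132, 138 to 318 and 156 to 313 CPM. Over all genes 28.1% rose and 28.9% fell with diet, and 19.6% rose and 19.0% fell with the guide. The counts of both endothelial lists that rose, the sinusoidal one with the guide and the other one with diet, were thus near the background. How far these cell types shaped the levels of the basement membrane genes was not tested.

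Of 10 hepatocyte markers 9 fell and 0 rose with diet, beside 28.9% of all genes that fell. With the guide 4 rose, 0 fell and 6 did not pass, beside 19.6% of all genes that rose. They summed to 77005 to 102641 CPM in chow, 43869 to 67172 in HFHF control and 51791 to 86234 in Flcn gRNA livers. Their part in the Col18a1 result was not tested.

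By profile over the 20 libraries, the genes outside the set that were nearest to the mean of the 9 were App (root mean square difference 0.138 in centred log2 CPM), Vasp (0.174), Adgra2 (0.179), Ifngr1 (0.184), Lacc1 (0.185) and Zeb2 (0.185). App averaged 45.3, 84.8 and 47.6 CPM in chow, HFHF control and Flcn gRNA livers. That mean blends Col18a1 with genes of the opposite pattern, so nearest genes were also sought for single members, a step added after the data had been seen. Nearest to Col18a1 were Abcc6 (0.096), Zdhhc9 (0.111) and Cat (0.121), and Abcc6 averaged 125, 82.4 and 112 CPM. Nearest to Col4a1 came Krt8 (0.162), then Col4a2 (0.164), Emilin1 (0.170) and Pdgfrb (0.172). Nid1 had more distant neighbours, B4galt6 (0.251), Col6a2 (0.281) and Tagln2 (0.281). Col18a1 and Nid1 were the least alike of the pairs among the 9, at 1.380.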

How the data were processed

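Values in the authors' deposited table are expected counts, estimates per gene with possible fractions, and 77.8% of those of 1 or more were whole. GRCm38 is the build named per the submitters' processing notes. Aligner, counter, annotation, strand setting and whether the adapters' molecular identifiers were used: not given in the sources used here. Without identifiers, amplified copies would count as separate reads. The table had 32422 features, of which 22 construct sequences (7 counts, 2.2e-06%) were left out. Of 32400 genes, 32325 matched a name in GENCODE M21. The 1 column without a sample label was not used. Columns were matched by library name and groups by the diet and treatment labels. Replicate numbers follow accession order and pair nothing.

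Counts were rounded, filtered with filterByExpr (13667 genes tested) and scaled by TMM in edgeR 4.0.16 (R 4.3.3). All 20 libraries entered 1 robust quasi-likelihood fit (residual degrees of freedom 17, common biological coefficient of variation 0.164). P-values were adjusted by Benjamini-Hochberg over all genes tested, with a threshold of 0.05. Fold changes are log2 unless given as linear, and "diet" stands for HFHF control against chow, "guide" for Flcn gRNA against HFHF control. Ratios of 11 gene pairs used log2 of counts plus 0.5 and exact two-sided permutation tests over libraries, adjusted over 33 tests. Group averages of ratios are geometric means, taken on the log2 scale and converted back. The tests were tried on simulated counts. Alternatives were RLE and upper-quartile scaling, DESeq2 1.42.0, limma-voom (limma 3.58.1), no filter, 2 groups per fit, other pseudocounts and leaving out each library. The genes, 12 lists and pairs were chosen with earlier results of these data known. Named from each list are up to 4 genes of smallest p in the guide and in the diet contrast, plus genes at 0, ratio partners, lists of 5 or fewer, and those said to be named after their values were seen.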

Additional observations from a re-analysis of the deposited data

Results flagged for a closer look

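Nid1 in HFHF control replicate 5 stood apart from the other libraries of its group, at 44.0 CPM where the other 6 lay between 70.9 and 89.3. Its gap to the nearest library was a larger share of the group's range than Dixon's test allows at the 95% level. Among the 27 combinations of gene and group examined it was the single one. Chance alone gives about 1 in every 20 combinations, so 1 among 27 is about what chance would give. Even this library was above the highest Flcn gRNA library, at 34.1 CPM. It was also the lowest HFHF control library in 5 of the 8 genes other than Col18a1.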

How the results depend on the processing

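For the guide contrast all 9 genes kept their direction and call under every alternative run. Against chow the number of these genes that passed, 5, became 3 with limma-voom and 3 without the low-count filter. The number lower, 2, became 1 with upper-quartile scaling, 1 with limma-voom, 0 without the filter and 1 with only the groups compared. Leaving out single libraries gave 2 to 5 passing and 0 to 3 lower. Col4a2 against chow, near 0, changed sign with RLE (2.5e-03), upper-quartile scaling (0.04), DESeq2 (2.1e-03), no filter (0.03) and 2 groups (0.01), and between -0.11 and 0.10 with single libraries left out. The Lamb1 to Lamc1 ratio differences, also near 0, ranged from -0.04 to 0.04 for the guide (-3.9e-04 with a pseudocount of 0.1) and from -0.02 to 0.08 for diet and against chow. Flcn ranged from -0.16 to 0.11 for diet, positive without chow replicate 1. The median log2 fold change of all genes stayed between -0.05 and 0.08 under other scalings and filters. The diet ratio of Lamb1 to Lamb2 (0.42, exact permutation adjusted p = 0.0743) passed with a pseudocount of 5 (0.45, 0.0473) and without chow replicate 5 (0.0304) or HFHF control replicate 6 (0.0325). In all, 149 of 162 fold changes kept their direction and call under other settings, and 503 of 540 with single libraries left out. Lamb2 had the lowest counts of the 9 genes, down to 24 in a library, which limits the precision of its values. No paired analysis was possible because the replicate numbers come from accession order. The causes of these changes were not tested.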
